A study of Mus musculus with 47 samples.

Results

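The genes described here are 5 genes of Paneth cells that are not defensins: Lyz1, Ang4, Itln1, Mmp7 and Cd24a. They were chosen by symbol, as 5 of the 24062 gene symbols in a table of RNA-seq read counts from mouse intestine, and were followed across all 17 groups of the study. The study set intestinal adenomas of Apc Min mice, which carry an adenoma-inducing allele of the tumour suppressor Apc, against mucosa of the same genotype and of wild-type mice on several strain backgrounds, and it treated Apc Min organoids with 5-aza-cytidine. Age was given as 15 to 19 weeks for all samples.

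Adenomas (3 libraries per background) came from Apc Min mice on 4 backgrounds. These were C5, a consomic strain that is C57BL/6 except for its PWD/Ph chromosome 5, the F1 of that strain with C57BL/6 (C5F1), the F1 of C57BL/6 and PWD (B6xPWD), and C57BL/6 itself (B6). Min mucosa, the normal mucosa of Apc Min mice, was sampled on the same 4 backgrounds with 3 libraries each. Wild-type mucosa was sampled with 3 libraries each on those backgrounds and on PWD/Ph (PWD). Organoids, cultures grown from intestinal epithelium, all carried Apc Min and were of C5 or B6 strain, with 2 libraries each after 5-aza-cytidine (AZA) and 2 each as untreated controls. The labels do not give the tissue the organoids were grown from, the AZA dose or its duration, and nothing in them says that replicates came from separate animals or cultures. The p-values therefore describe the spread among these libraries, which may be technical.

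Paneth cells sit at the base of the crypts of the small intestine, between the stem cells, and fill their granules with antimicrobial proteins while supplying growth signals to their neighbours. Wnt signalling, which Apc restrains, is known to act in both stem cell upkeep and Paneth cell maturation. Lyz1 encodes lysozyme P, which cuts the peptidoglycan of bacterial walls, Ang4 a microbicidal ribonuclease of the angiogenin family, and Itln1 the lectin intelectin 1, which binds microbial sugars and is also made by goblet cells. Mmp7 encodes matrilysin, the protease that activates alpha-defensin precursors in mouse Paneth cells and is also made by intestinal tumour cells. Cd24a encodes a membrane-anchored surface glycoprotein that is used to sort Paneth cells but is also present on other crypt cells and on leukocytes.

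The genes lie on 4 chromosomes of the mm10 assembly (GRCm38), none on chromosome 5. In the GENCODE M21 annotation they are protein-coding genes at chr10:117287797-117292868 (Lyz1, minus strand), chr14:51763878-51773590 (Ang4, minus), chr1:171518122-171535294 (Itln1, minus), chr9:7692090-7699585 (Mmp7, plus) and chr10:43578284-43584265 (Cd24a, plus). The C5 strain therefore carries the B6 alleles of all 5 genes, whereas PWD and B6xPWD carry PWD alleles.

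The 250 bases before the annotated start of each gene are shown for 4 of the 5 genes, because Mmp7 went the opposite way to Lyz1, Ang4 and Itln1 in adenoma and the same way with AZA. They are printed 5′ to 3′ on the strand of the gene from the RefSeq promoter set for GRCm38.p6, which held no entry matched to Cd24a. Capitals mark CTTTG or its complement CAAAG (the core letters bound by TCF and LEF, the DNA-binding partners of beta-catenin), TGAGTCA or its complement TGACTCA (the letters of an AP-1 element), and CG, the dinucleotide that carries DNA methylation. The motifs were picked with these sequences in view.
Lyz1, chr10:117292869-117293118 minus strand: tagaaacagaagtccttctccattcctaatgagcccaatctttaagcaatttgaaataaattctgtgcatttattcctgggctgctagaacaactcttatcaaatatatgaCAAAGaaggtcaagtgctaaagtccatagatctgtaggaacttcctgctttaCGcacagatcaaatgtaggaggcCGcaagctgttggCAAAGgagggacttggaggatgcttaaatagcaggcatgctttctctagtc
Ang4, chr14:51773591-51773840 minus strand: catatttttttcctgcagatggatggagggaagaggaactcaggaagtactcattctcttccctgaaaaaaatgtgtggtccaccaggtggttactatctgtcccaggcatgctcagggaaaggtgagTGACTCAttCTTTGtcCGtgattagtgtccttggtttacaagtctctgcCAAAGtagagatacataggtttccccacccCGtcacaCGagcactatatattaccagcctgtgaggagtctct
Itln1, chr1:171535295-171535544 minus strand: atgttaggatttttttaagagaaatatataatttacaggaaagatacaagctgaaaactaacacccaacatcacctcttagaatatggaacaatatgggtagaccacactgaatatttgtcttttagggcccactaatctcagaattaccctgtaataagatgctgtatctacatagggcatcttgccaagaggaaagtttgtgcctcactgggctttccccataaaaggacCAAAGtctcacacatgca
Mmp7, chr9:7691840-7692089 plus strand: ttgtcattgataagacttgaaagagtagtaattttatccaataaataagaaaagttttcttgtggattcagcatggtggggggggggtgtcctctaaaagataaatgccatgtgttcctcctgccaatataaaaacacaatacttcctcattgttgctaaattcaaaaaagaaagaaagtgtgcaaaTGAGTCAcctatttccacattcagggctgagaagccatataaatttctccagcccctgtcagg

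Lyz1 held 2 CTTTG matches, at 139 to 135 and at 51 to 47 bases before the start, and 2 CG dinucleotides. Ang4 held 2 CTTTG matches, 1 TGAGTCA match at 122 to 116 bases before the start, and 3 CG. Itln1 held 1 CTTTG match at 18 to 14 bases before the start and 0 CG. Mmp7 held 0 CTTTG matches, 1 TGAGTCA match at 63 to 57 bases before the start and 0 CG. Of 32851 promoters of the same length, searched on both strands, 48.6% held CTTTG, 4.46% held TGAGTCA and 92.1% held CG, with a median of 6 CG. The match sets did not overlap one another in these 4 sequences, and a match describes letters only.

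Reads assigned to genes numbered 2726505 to 20070696 per tissue library and 4389898 to 8373764 per organoid library. The ribosomal precursor Rn45s made up 28.8 to 57.7% of those reads in adenoma, 24.3 to 72.7% in Min mucosa and 16.4 to 61.0% in wild-type mucosa, but at most 1.61% in organoids. Apc itself stood at 107 to 173 CPM in the adenomas and at 112 to 179 CPM in the Min mucosa, and read counts per gene do not show the Min mutation. All 5 genes passed the filter on low counts in the tissue, organoid and joint fits. Levels are given as CPM, read counts divided by the library's TMM-scaled total of reads assigned to genes and set to the usual CPM base, which was done apart for tissue and for organoids. With Rn45s left out of the totals tissue levels rise, to a mean of 2213 CPM for Lyz1 in B6 adenoma and 5235 CPM in B6 Min mucosa, against 986 and 2773 CPM with it.

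Per kilobase of exon, Lyz1 was the most abundant of the 5 genes in every tissue class, with means of 1418 CPM per kb in adenoma and 3681 CPM per kb in Min mucosa. In adenoma Itln1 followed at 421 CPM per kb, Ang4 at 284, Mmp7 at 184 and Cd24a at 92.6. Min mucosa had the same order, with Itln1 at 969 CPM per kb, Ang4 at 751, Mmp7 at 134 and Cd24a at 46.9. This order held in all 4 Min groups and in C5 and B6xPWD adenoma. In B6 adenoma Ang4 came last of the 5, at 76.3 CPM per kb, and in C5F1 adenoma it stood above Itln1, at 458 against 404 CPM per kb. Control organoids had another order, with Itln1 first at 529 CPM per kb, then Lyz1 at 215, Cd24a at 111, Ang4 at 22.4 and Mmp7 at 5.49.

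Set on 1 joint scale, the 17 groups were ordered differently for the granule genes and for Cd24a. Lyz1 was highest in B6xPWD Min mucosa, at 7064 CPM, and lowest in C5 and B6 control organoids, at 179 and 138 CPM. The first 9 places of Lyz1 were held by the 9 groups of mucosa, whose neighbours in the order overlapped, and the adenoma groups and AZA organoids followed. Ang4 ran from 836 CPM in C5F1 Min mucosa to 6.51 CPM in B6 control organoids. Itln1 ran from 1719 CPM in B6 wild-type mucosa to 300.3 CPM in B6 adenoma, with the control organoids just above B6 adenoma at 337 CPM (C5) and 364 CPM (B6).

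Mmp7 and Cd24a had adenoma groups at the top. Mmp7 was led by C5F1 adenoma at 251 CPM, B6 adenoma at 242 CPM and C5 adenoma at 224 CPM, whose libraries overlapped, and ended at 2.95 CPM in B6 control organoids. C5F1 Min mucosa at 209 CPM and B6 wild-type mucosa at 207 CPM came next, and B6xPWD adenoma stood only at rank 8, at 167 CPM. From the first group down to B6 AZA organoids neighbouring groups overlapped, so adenoma was not set apart from mucosa for Mmp7. The 4 highest groups for Cd24a were the 4 adenoma groups, at 333 CPM in B6, 279 CPM in C5F1, 240.3 CPM in B6xPWD and 224 CPM in C5. No library of the fourth overlapped the fifth group, C5 control organoids at 167 CPM. The lowest B6xPWD adenoma library, at 169 CPM, did lie below the highest libraries of C5 control organoids (184 CPM) and B6 wild-type mucosa (177 CPM). From C5 control organoids to the lowest group, B6xPWD wild-type mucosa at 104 CPM, neighbouring groups overlapped.

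**Figure D1:**
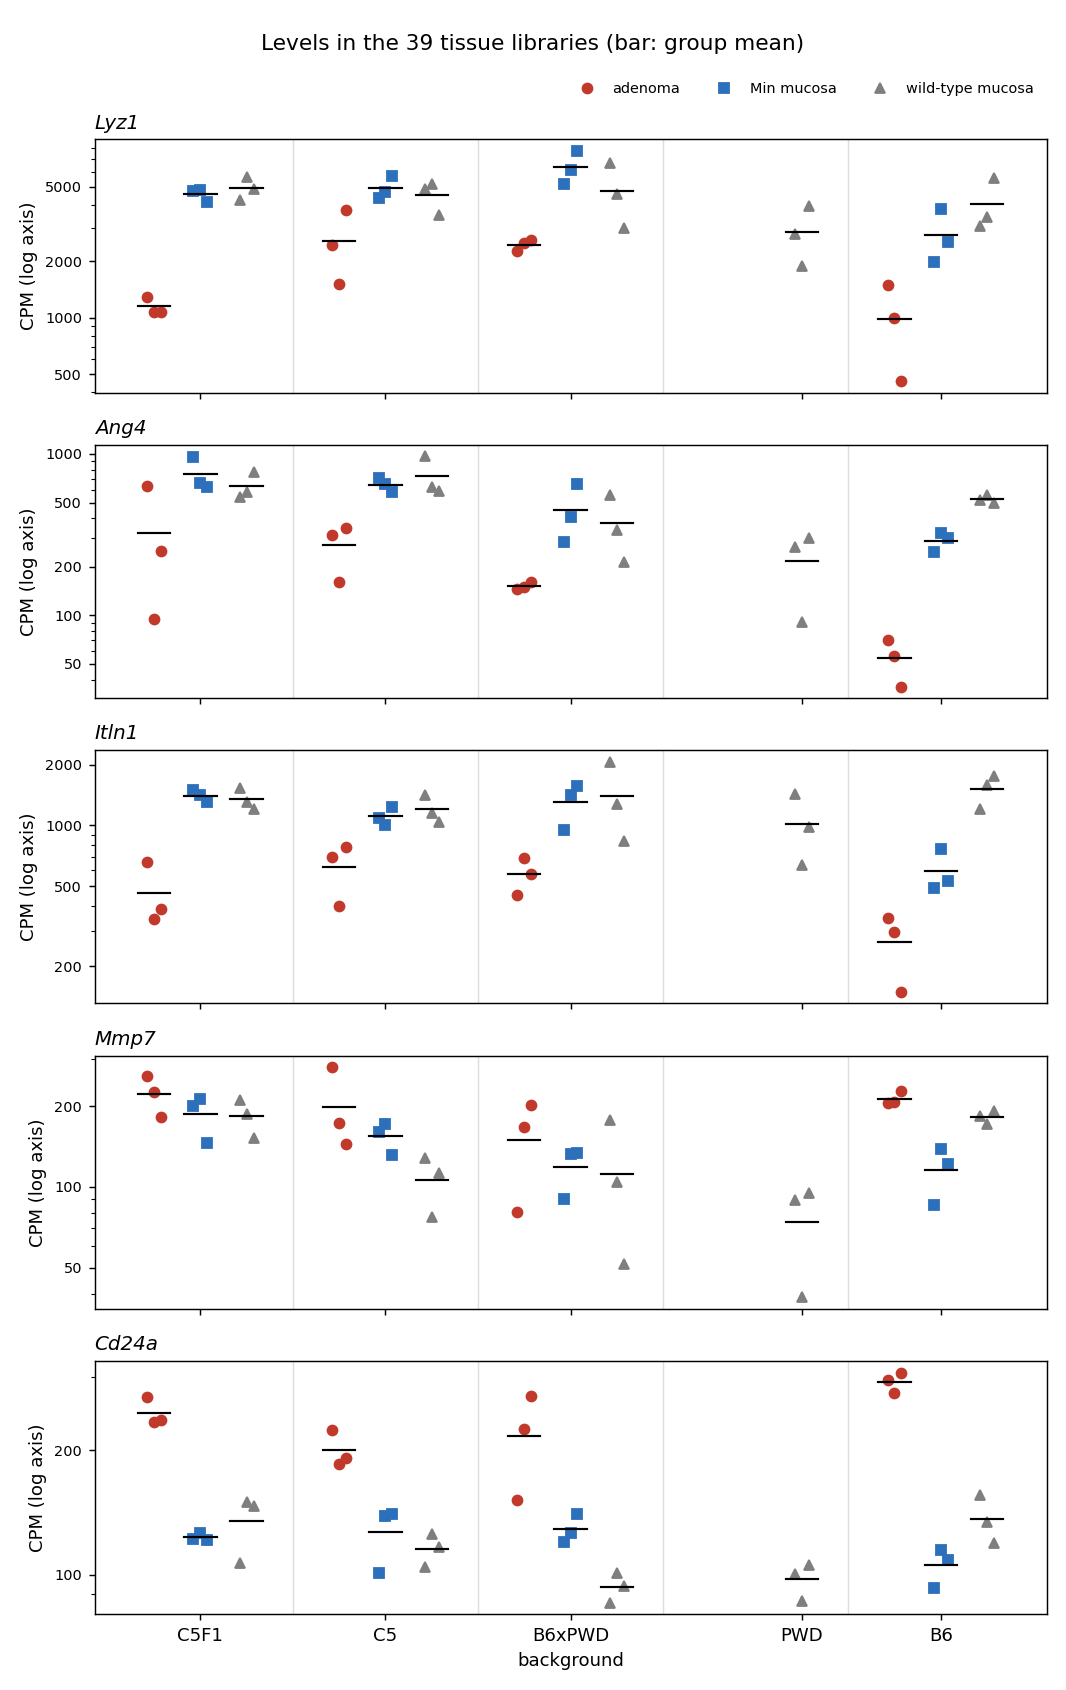
Levels of the 5 genes in the 39 tissue libraries, in CPM on a log axis, by background and tissue; points are libraries and bars are group means. Lyz1, Ang4 and Itln1 lay lower in adenoma than in Min mucosa of the same background, while Cd24a lay higher.

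The first comparison set adenoma against Min mucosa, which share the Apc Min genotype, and asks what differs in the tumour. Lyz1, Ang4 and Itln1, the secreted antimicrobial products, were 2.30-fold to 3.03-fold lower in adenoma over the 4 backgrounds. Mmp7, the defensin-processing protease, was 1.38-fold higher, and the surface protein gene Cd24a 1.95-fold higher. By edgeR's quasi-likelihood test with Benjamini-Hochberg adjustment over all 13657 genes tested, all 5 genes passed an adjusted p of 0.05, in a comparison where 45.2% of all genes tested were called. A lower level in bulk tissue can reflect fewer Paneth cells or less RNA per cell, which cannot be told apart here. Adenoma and Min libraries of the same number deviated together in every pair. The main tests left this pairing out, so values with the replicate number as a block are given where they change a call.

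Lyz1 averaged 1791 ± 931 CPM in adenoma, against 4649 ± 1533 CPM in Min mucosa (SD, n = 12 each). B6 adenomas had 1499, 1002 and 458 CPM, against 1982, 3796 and 2542 CPM in B6 Min mucosa. C5F1 adenomas had 1293, 1069 and 1078 CPM, against 4725, 4820.0 and 4158 CPM in C5F1 Min mucosa, the widest gap of the 4 backgrounds. C5 adenomas had 2454, 1516 and 3762 CPM, against 4326, 4699 and 5696 CPM in C5 Min mucosa. B6xPWD adenomas had 2260.2, 2499 and 2598 CPM, against 5165, 6123 and 7756 CPM in B6xPWD Min mucosa.

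In all 4 backgrounds every adenoma library lay below every Min library for Lyz1. The mean log2 change was −1.45 ± 0.18 (SE, adjusted p = 6.98e-08), and the changes were −1.49 for B6 (adjusted p = 0.00231), −1.99 for C5F1 (0.000164), −0.93 for C5 (0.219) and −1.37 for B6xPWD (0.00789). The C5 change had an interval of −1.62 to −0.23 before adjustment and did not pass. The share of all genes called was 26.7% for B6, 20.5% for C5F1, 2.77% for C5 and 16.4% for B6xPWD, so the C5 comparison called fewest genes of any kind. Lyz2, the near-identical macrophage lysozyme gene, held 0.877 to 9.90% of the summed Lyz1 and Lyz2 reads in adenoma and 0.690 to 3.76% in Min mucosa, and reads from the 2 genes can be confused in the authors' counting.

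Ang4 averaged 201 ± 167 CPM in adenoma, against 533 ± 217 CPM in Min mucosa (SD, n = 12 each). B6 adenomas had 70.1, 55.8 and 36.3 CPM, against 246, 323 and 302 CPM in B6 Min mucosa. C5F1 adenomas had 629.9, 94.6 and 250.4 CPM, against 954, 659.5 and 625 CPM in C5F1 Min mucosa. The first of these C5F1 adenomas reached the range of Min mucosa, the only overlap for this gene.

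C5 adenomas had 313, 161 and 348 CPM of Ang4, against 708, 648 and 578 CPM in C5 Min mucosa. B6xPWD adenomas had 146, 150.2 and 160.2 CPM, against 284, 409 and 654 CPM in B6xPWD Min mucosa. In these 2 backgrounds the tissues did not overlap. On the log2 scale the mean change was −1.60 ± 0.22 (SE, adjusted p = 5.54e-07). By background it was −2.41 ± 0.46 for B6 (adjusted p = 0.000187), −1.20 ± 0.44 for C5F1 (0.051), −1.23 for C5 (0.171) and −1.56 for B6xPWD (0.0148). The C5F1 change was called by DESeq2 (adjusted p = 0.0282) and with the replicate block (−1.44, 0.0239), and without the first C5F1 adenoma it was −2.16 (adjusted p = 0.0012). In a blocked fit of adenoma and Min mucosa alone the C5 change was −1.301 (adjusted p = 0.0279). The B6xPWD call was lost without the third Min library.

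Itln1 averaged 480.4 ± 195 CPM in adenoma, against 1106 ± 367 CPM in Min mucosa (SD, n = 12 each). B6 adenomas had 347, 296 and 149 CPM, against 489, 763 and 531 CPM in B6 Min mucosa. C5F1 adenomas had 656, 342 and 384 CPM, against 1505, 1411 and 1303 CPM in C5F1 Min mucosa. Both pairs of groups were apart, and the Min libraries of B6 were the lowest of any Min group.

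C5 adenomas had 695, 397 and 778 CPM of Itln1, against 1092, 1002 and 1235 CPM in C5 Min mucosa. B6xPWD adenomas had 453, 693 and 573 CPM, against 951, 1423 and 1566 CPM in B6xPWD Min mucosa. No adenoma library reached the Min range in any of the 4 backgrounds. Over the 4 backgrounds the log2 change was −1.20 ± 0.17 (SE, adjusted p = 4.38e-07). By background it was −1.17 for B6 (adjusted p = 0.00862), −1.61 for C5F1 (7e-04), −0.83 for C5 (0.246) and −1.20 for B6xPWD (0.0117). In the blocked fit of adenoma and Min mucosa alone the C5 change was −0.88 (adjusted p = 0.0298). The B6 call was lost without the third adenoma or the second Min library, and the B6xPWD call without the third Min library.

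Mmp7 averaged 196 ± 52.6 CPM in adenoma, against 144 ± 38.4 CPM in Min mucosa (SD, n = 12 each). B6 adenomas had 205, 207 and 227 CPM, against 85.7, 138 and 122 CPM in B6 Min mucosa. C5F1 adenomas had 259, 226 and 182 CPM, against 200.4, 213 and 145 CPM in C5F1 Min mucosa. The tissues were apart in B6 and overlapped in C5F1.

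C5 adenomas had 279.5, 174 and 145 CPM of Mmp7, against 160.1, 172 and 131 CPM in C5 Min mucosa. B6xPWD adenomas had 80.5, 168 and 201 CPM, against 90.0, 132 and 133 CPM in B6xPWD Min mucosa, and here too the ranges overlapped. The mean log2 change was 0.46 ± 0.17 (SE, adjusted p = 0.0244), and it missed the threshold without any 1 of 5 libraries, namely the third B6xPWD adenoma, the first C5F1 or C5 adenoma, or the third C5F1 or C5 Min library (adjusted p up to 0.0795). By background only B6 passed, at 0.89 ± 0.34 (adjusted p = 0.049). With the replicate block the B6 value was 0.90 (adjusted p = 0.0548), with Rn45s left out its adjusted p was 0.0502, and no B6 fit that left out a library made the call. The other backgrounds gave 0.25 in C5F1 (adjusted p = 0.658), 0.37 in C5 (0.739) and 0.34 in B6xPWD (0.545).

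Cd24a averaged 239 ± 47.02 CPM in adenoma, against 121 ± 15.0 CPM in Min mucosa (SD, n = 12 each). B6 adenomas had 296, 274 and 308 CPM, against 93.2, 115 and 109 CPM in B6 Min mucosa. C5F1 adenomas had 269, 233 and 237 CPM, against 122, 126 and 122 CPM in C5F1 Min mucosa. The groups were far apart, and the libraries of a group lay close together.

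C5 adenomas had 224, 185 and 191 CPM of Cd24a, against 101, 139 and 140.1 CPM in C5 Min mucosa. B6xPWD adenomas had 152, 225 and 271 CPM, against 119.9, 126 and 140.3 CPM in B6xPWD Min mucosa. The lowest of the 12 adenoma libraries, at 152 CPM, lay above the highest of the 12 Min libraries, at 140.3 CPM. Their mean log2 change was 0.97 ± 0.09 (SE, adjusted p = 7.77e-11). All 4 backgrounds passed, with 1.47 in B6 (adjusted p = 1.72e-07), 0.995 in C5F1 (8.22e-05), 0.66 in C5 (0.0241) and 0.75 in B6xPWD (0.00265). The C5 call was lost in 5 of 6 fits that left out a library and the B6xPWD call without the third adenoma, and both were lost in fits of the compared groups alone (adjusted p = 0.0885 and 0.0888).

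**Figure D2:**
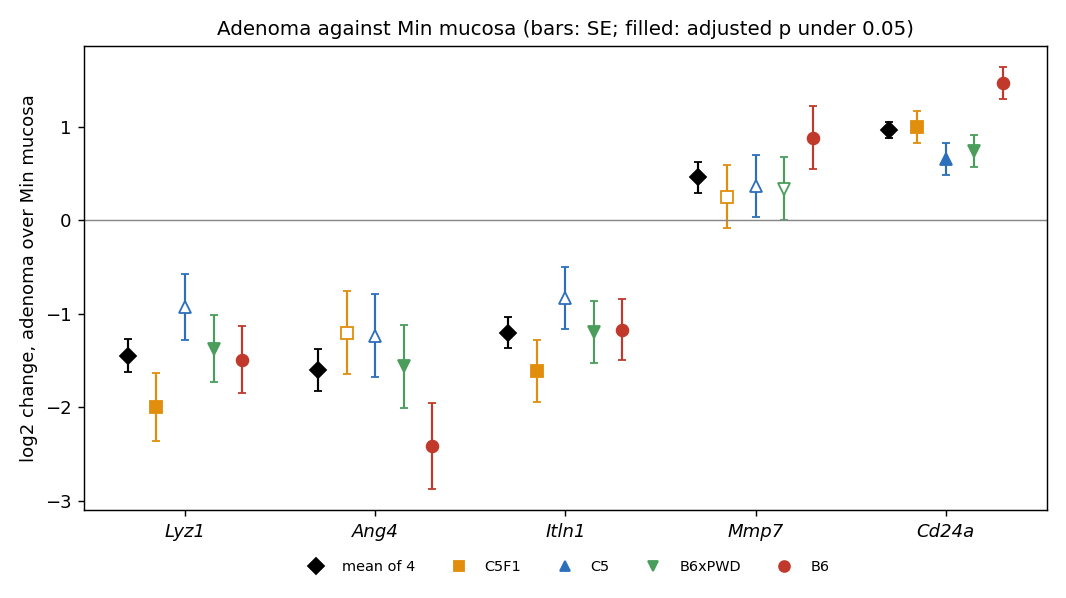
The log2 change of each gene, adenoma over Min mucosa, for the mean of the 4 backgrounds and for each background; bars are SE and filled points have an adjusted p under 0.05. Lyz1, Ang4 and Itln1 lay below 0 and Mmp7 and Cd24a above 0 in each of the 4 backgrounds.

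The adenoma change of B6 was set against that of each other background by an interaction term. Where C5F1 was compared with B6, 0% of all genes were called by edgeR (396 at an unadjusted p under 0.05), and none of the 5 genes passed with edgeR or DESeq2. For C5 minus B6, where 0.11% of genes were called, Cd24a differed by −0.81 ± 0.24 (SE, adjusted p = 0.178), with DESeq2 an adjusted p of 0.0298, and no other of the 5 genes passed with either tool. For B6xPWD minus B6, where 0.63% of genes were called, Cd24a differed by −0.72 ± 0.24 (SE, adjusted p = 0.148), and none of the 5 passed with either tool, although Cd24a did without the third B6xPWD adenoma (−0.93, adjusted p = 0.0334). Ang4 had wide intervals, from 0.00 to 2.42 for C5F1 minus B6 and from −0.03 to 2.39 for C5 minus B6.

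Reads of each gene were also set against the Lyz1 reads of the same library. Per 100 Lyz1 reads, Mmp7 had 3.56 to 49.6 reads in adenoma (median 12.6), against 1.72 to 4.78 in Min mucosa (median 3.65). Cd24a had 5.09 to 67.1 reads in adenoma (median 15.97), against 1.81 to 4.70 in Min mucosa (median 2.60). For Cd24a the 2 tissues did not overlap.

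The log2 ratio, with 1 read added to each count, differed between adenoma and Min mucosa by 1.93 for Mmp7 and 2.45 for Cd24a. Each was positive in 4 of 4 backgrounds. The ratios restate the changes above, since Lyz1 was itself lower in adenoma, and no test of them is given. Ang4 had 4.68 to 48.7 reads per 100 Lyz1 reads in adenoma (median 8.38) and 5.504 to 20.2 in Min mucosa (median 12.1), a log2 difference of −0.21. The value of 48.7 belongs to the first C5F1 adenoma. Itln1 had 20.05 to 50.7 in adenoma (median 28.0) and 18.4 to 31.8 in Min mucosa (median 22.5), a difference of 0.25, positive in 4 of 4 backgrounds. This ratio was added after the data had been seen.

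**Figure D3:**
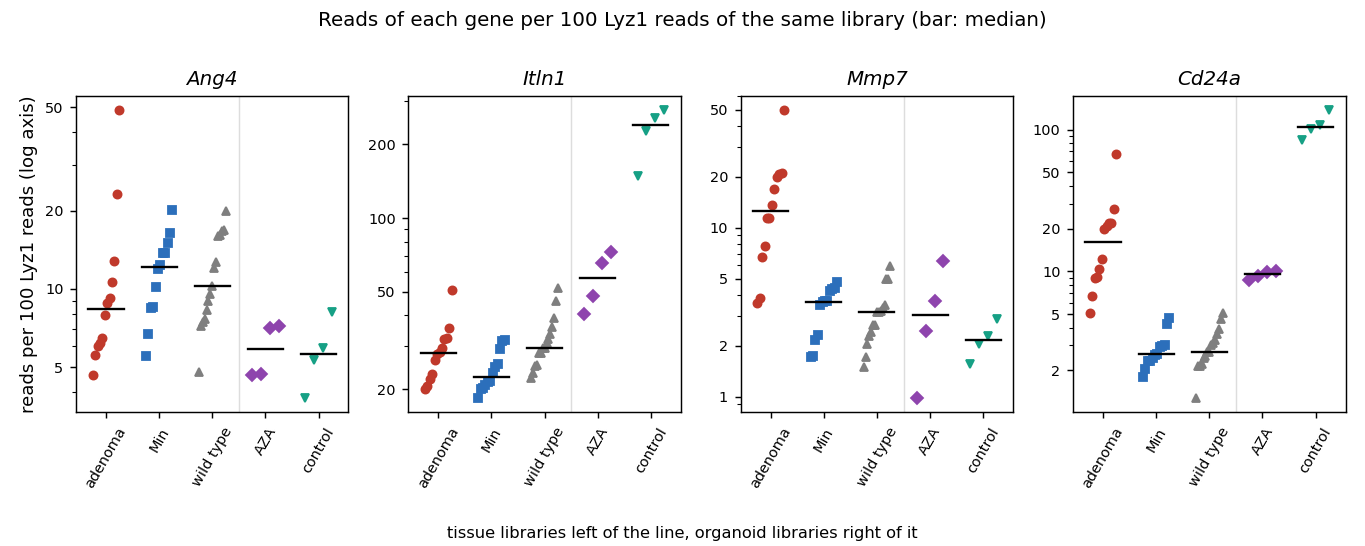
Reads of Ang4, Itln1, Mmp7 and Cd24a per 100 Lyz1 reads of the same library, on a log axis, in tissue and in organoids; points are libraries and bars are medians. Mmp7 and Cd24a lay higher in adenoma than in Min mucosa, and Itln1 and Cd24a were highest in control organoids.

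Across the 39 tissue libraries, which differ in tissue and background, Lyz1 and Itln1 had a Pearson r of 0.914 in log2 CPM, Ang4 and Itln1 0.851, and Lyz1 and Ang4 0.798. Mmp7 and Cd24a had 0.624, whereas Cd24a ran opposite to Itln1 (−0.669) and to Lyz1 (−0.657), and Lyz1 and Mmp7 had −0.191. These are descriptions over libraries that share the tissue contrast. Among the other 13652 genes, those with the most similar levels to Lyz1 included Gm15292 (0.898) and Styk1 (0.892). Those most similar to Ang4 were Gm15292 (0.868), Pde5a (0.853) and Bhlha15 (0.830). Bhlha15 encodes the transcription factor MIST1 of secretory cells.

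Itln1 was most like Clps, which encodes colipase (0.945), Gm15292 (0.908) and Aldh9a1 (0.907). Mmp7 was most like Tmed9 (0.792), Dnajc10 (0.783) and Spink4 (0.782), none as close as the genes nearest to the other 4. Cd24a was most like Tnfrsf19 (0.934), Ggh (0.934) and Prox1 (0.919). Prox1 is a transcription factor gene known to be switched on by Wnt signalling in intestinal tumours. The ranking depended on the measure. Of the 3 genes nearest by Pearson's r, 1 stayed among the 3 nearest by Spearman's rho for Lyz1, Ang4, Itln1 and Mmp7 each, and 0 for Cd24a.

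The other genes of the pathway were described from fixed lists, beside the all-gene median log2 change of 0.01. Of all genes tested, 23.7% were called higher in adenoma and 21.5% lower. Of 28 listed granule genes 19 were tested, of which 13 were called lower and 3 higher in adenoma, with a median of −1.24. The lowest were the alpha-defensins Defa21 (−2.29), Defa22 (−2.25) and Defa26 (−2.16), whose near-identical copies can share reads. Those higher were Pla2g2a (1.49), a gene of a secreted phospholipase, Reg4 (1.301) and Habp2 (1.01). GENCODE M21 lists Pla2g2a as a polymorphic pseudogene, so its read counts, here and below, do not show that the phospholipase is made.

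Of 14 niche and signalling genes 4 were called higher, among them the ephrin receptor genes Ephb3 (1.74) and Ephb2 (0.91), and 7 lower, among them Bst1 (−1.34), the growth factor gene Egf (−0.85) and the Notch ligand gene Dll1 (−0.72); the median was −0.18. Of 11 secretory transcription factors 5 were higher, led by Sox9 (1.55), Foxa1 (1.09) and Foxa3 (0.69), and 3 lower, namely Bhlha15 (−0.81), Gfi1 (−0.59) and Xbp1 (−0.29), with a median of 0.05. Of 14 other matrix metalloproteinases and their inhibitors 11 were higher and 0 lower, with a median of 1.27, led by Timp1 (3.04), Mmp10 (2.60) and Mmp12 (2.56). All 15 Wnt target genes were higher, led by Notum (5.86), Wif1 (5.19) and Prox1 (3.34), with a median of 1.63.

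Markers of other cell types were also counted, where 23.7% of all genes were called higher in adenoma and 21.5% lower. Enterocyte markers summed to 1518 to 6783 CPM in adenoma, against 5258 to 12393 CPM in Min mucosa, with 5 of 7 called lower. Goblet markers summed to 3510.2 to 9492 CPM in adenoma, against 7074 to 11051 CPM in Min mucosa, with 4 of 8 lower and Retnlb higher. Enteroendocrine markers summed to 31.1 to 98.5 CPM in adenoma, against 109 to 211 CPM in Min mucosa, with 6 of 7 lower.

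Stem cell markers summed to 405 to 701 CPM in adenoma, against 488 to 1011 CPM in Min mucosa, with 3 of 5 higher and 1 lower. Macrophage markers summed to 91.1 to 436 CPM in adenoma, against 137 to 370.1 CPM in Min mucosa, with 1 of 7 tested higher and 3 lower. Distal ileum markers summed to 517 to 2644 CPM in adenoma, against 1124 to 5861 CPM in Min mucosa, with 1 of 4 lower. No marker of these 6 lists was at 0 throughout a tissue. Lists of tuft cell, neutrophil, B cell, pancreas, fat, proximal intestine and colon markers are not given here for this comparison. The part of other cell types in the changes of the 5 genes was not tested.

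The second comparison set Min mucosa against wild-type mucosa, and asks what the Min allele changes outside the tumour. None of the 5 genes was called over the 4 backgrounds by edgeR or DESeq2. Of all genes 0.00732% were called by edgeR (1015 at an unadjusted p under 0.05), and DESeq2 called 23. The mean log2 change was −0.03 for Lyz1 (95% interval −0.37 to 0.32), −0.13 for Ang4 (−0.55 to 0.30), −0.37 for Itln1 (−0.69 to −0.05, adjusted p = 0.614), 0.00 for Mmp7 (−0.35 to 0.34) and 0.02 for Cd24a (−0.15 to 0.19).

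In B6, where 0.52% of genes were called, Itln1 had 489, 763 and 531 CPM in B6 Min mucosa, against 1204, 1585 and 1767 CPM in B6 wild-type mucosa. Ang4 had 246, 323 and 302 CPM in B6 Min mucosa, against 521, 554 and 497 CPM in B6 wild-type mucosa. For Itln1, Ang4, Mmp7 and Cd24a the B6 groups did not overlap, and Min was lower each time. None of the 5 genes was called by edgeR there. Of all 13657 genes tested 1817 had an unadjusted p under 0.05, and the share of genes without overlap was not counted.

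The B6 change of Itln1 was −1.35 ± 0.33 (SE, adjusted p = 0.0514), just outside the threshold. It was called by DESeq2 (adjusted p = 0.00542), without a filter on low counts (0.044), with Rn45s left out (0.0488) and without the first wild-type library (0.0282). Ang4 was at −0.85 (adjusted p = 0.404), Mmp7 at −0.66 (0.396), Lyz1 at −0.54 (0.543) and Cd24a at −0.37 (0.328).

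In the other backgrounds 0% of all genes were called by edgeR, with 687 in C5F1, 994 in C5 and 488 in B6xPWD at an unadjusted p under 0.05. There none of the 5 genes passed with edgeR or DESeq2, and Cd24a in B6xPWD alone had an unadjusted p under 0.05. Cd24a had 119.9, 126 and 140.3 CPM in B6xPWD Min mucosa, against 85.7, 101 and 94.0 CPM in B6xPWD wild-type mucosa, without overlap (log2 change 0.46, adjusted p = 1). Mmp7 in C5 did not overlap either, at 160.1, 172 and 131 CPM in C5 Min mucosa, against 128, 77.4 and 113 CPM in C5 wild-type mucosa (log2 change 0.55, adjusted p = 0.738), and there Min was higher. Whether the B6 change of Itln1 differs from those of other backgrounds was not tested.

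Strain was compared within wild-type mucosa, which carries no Min allele. PWD mucosa had less Ang4, Mmp7 and Cd24a than B6 mucosa, in a comparison where 18.7% of all genes were called. Mmp7 had 89.0, 38.8 and 95.05 CPM in PWD, against 183, 172 and 193 CPM in B6. Ang4 had 265, 90.6 and 299 CPM in PWD, against 521, 554 and 497 CPM in B6. Cd24a had 100.4, 86.3 and 106 CPM in PWD, against 156, 135 and 119.6 CPM in B6.

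For these 3 genes every PWD library lay below every B6 library. How many of all genes were apart in this way was not counted, and 4302 of the 13657 tested had an unadjusted p under 0.05. The log2 changes were −1.301 ± 0.34 for Mmp7 (SE, adjusted p = 0.00718), −1.26 ± 0.44 for Ang4 (0.0426) and −0.49 ± 0.17 for Cd24a (0.0427). Each depended on few libraries. The Mmp7 call was lost without the second PWD library (adjusted p = 0.0747), the Ang4 call in 5 of 6 fits that left out a library, and the Cd24a call in 4 of 6. In a fit of these 2 groups alone Ang4 was at −1.29 (adjusted p = 0.0925) and Cd24a at −0.52 (0.162).

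Lyz1 had 2779, 1887 and 3922 CPM in PWD and 3094, 3442 and 5535 CPM in B6, with overlap (−0.49, adjusted p = 0.358). Itln1 had 1436, 634 and 987 CPM in PWD and 1204, 1585 and 1767 CPM in B6 (−0.58, adjusted p = 0.23). Lyz2 held 6.91 to 12.9% of Lyz1 and Lyz2 reads in PWD and 0.621 to 2.63% in B6. PWD alleles carry sequence differences from the mm10 genome, and their effect on read mapping was not tested. Macrophage markers summed to 422 to 669 CPM in PWD and 168 to 252 CPM in B6, and enterocyte markers to 15530.2 to 35969 CPM in PWD and 5215 to 14544 CPM in B6, whose part was not tested. Granule genes other than these 5 split, with 9 of 19 tested lower in PWD, led by Defa17 (−8.03, from 9 reads in all in PWD and 4337 in B6), and 4 higher, led by Pla2g2a (5.86). Of all genes tested, 8.79% were called lower in PWD and 9.96% higher.

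The other strains were set against B6 in the same way. Against B6, C5F1 had none of the 5 genes called by edgeR or DESeq2 and none at an unadjusted p under 0.05, where 0.022% of genes were called. C5 had none called by either tool, where 1.47% of genes were called, with Mmp7 at 128, 77.4 and 113 CPM in C5 and 183, 172 and 193 CPM in B6 (−0.79, unadjusted p = 0.0269, adjusted p = 0.241). B6xPWD had Cd24a lower, at 85.7, 101 and 94.0 CPM, against 156, 135 and 119.6 CPM in B6 (−0.55 ± 0.17, adjusted p = 0.0399), where 9.6% of genes were called. These groups did not overlap, and the call was lost in 5 of 6 fits that left out a library, with no filter on low counts (0.0704) and in the compared groups alone (0.163). Mmp7 had 178, 105 and 51.6 CPM in B6xPWD, overlapping B6, and was not called (−0.72, unadjusted p = 0.0425, adjusted p = 0.184). Without the first B6xPWD wild-type library it was called, at −1.22 (adjusted p = 0.0342).

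Strain was also compared within adenoma. Lyz1, Ang4 and Itln1 were higher in C5 adenomas than in B6 adenomas, where 17.8% of genes were called. The log2 difference was 2.33 ± 0.46 for Ang4 (SE, adjusted p = 0.00072), 1.38 for Lyz1 (0.00756) and 1.24 for Itln1 (0.00959), while Cd24a was lower by −0.55 (0.0241) and Mmp7 stood at −0.09 (0.885). From the values above, each Ang4, Lyz1 and Itln1 library of C5 adenoma lay above each of B6 adenoma. The calls of Lyz1 and Itln1 were lost without the third B6 or the third C5 adenoma, and that of Cd24a without either of these or the second C5 adenoma (adjusted p up to 0.0939).

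B6xPWD adenomas likewise had more than B6 adenomas, where 16.9% of genes were called, with 1.31 for Lyz1 (adjusted p = 0.011), 1.48 for Ang4 (0.021) and 1.11 for Itln1 (0.0187). All 3 calls were lost without the third B6 adenoma, the lowest of all 39 tissue libraries for these genes, the Ang4 call also without the second B6 adenoma and the Itln1 call also without the second B6xPWD adenoma. In a fit of these 2 groups alone Lyz1 had an adjusted p of 0.0849 and Itln1 0.0766. Cd24a was at −0.44 (adjusted p = 0.0731), called by DESeq2 (0.0342) and without the third B6xPWD adenoma (0.0158), and Mmp7 was at −0.51 (0.319). In C5F1 against B6 adenomas Ang4 alone was called, at 2.57 ± 0.46 (SE, adjusted p = 0.00601), where 0.483% of genes were called. Without the first C5F1 adenoma that value was 1.65 (adjusted p = 0.157), and the call was also lost without the second B6 adenoma. Itln1 was at 0.80 there (unadjusted p = 0.0206, adjusted p = 0.23). These comparisons share the B6 adenomas.

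Over wild-type mucosa, Min mucosa and adenoma together, C5 had more Ang4 (1.32 ± 0.26, adjusted p = 0.00073), Lyz1 (0.79 ± 0.20, 0.00767) and Itln1 (0.60 ± 0.19, 0.026) than B6, where 18.6% of genes were called. The Itln1 call was lost in 6 of 18 fits that left out a library. In wild-type mucosa alone none of the 3 was called, with 0.47 for Ang4 (adjusted p = 0.637), 0.17 for Lyz1 (0.864) and −0.34 for Itln1 (0.653), the last with the lower mean in C5. Mmp7 was at −0.15 (adjusted p = 0.62) and Cd24a at −0.18 (0.215). Of the 19 other granule genes tested 6 were higher and 1 lower, with a median of 0.01. Among markers of other cells, 4 of 7 enterocyte and 2 of 5 proximal intestine markers were higher and 3 of 7 macrophage markers lower in C5. Their part was not tested. Of all genes tested, 10.3% were called higher in C5 and 8.35% lower.

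**Figure D4:**
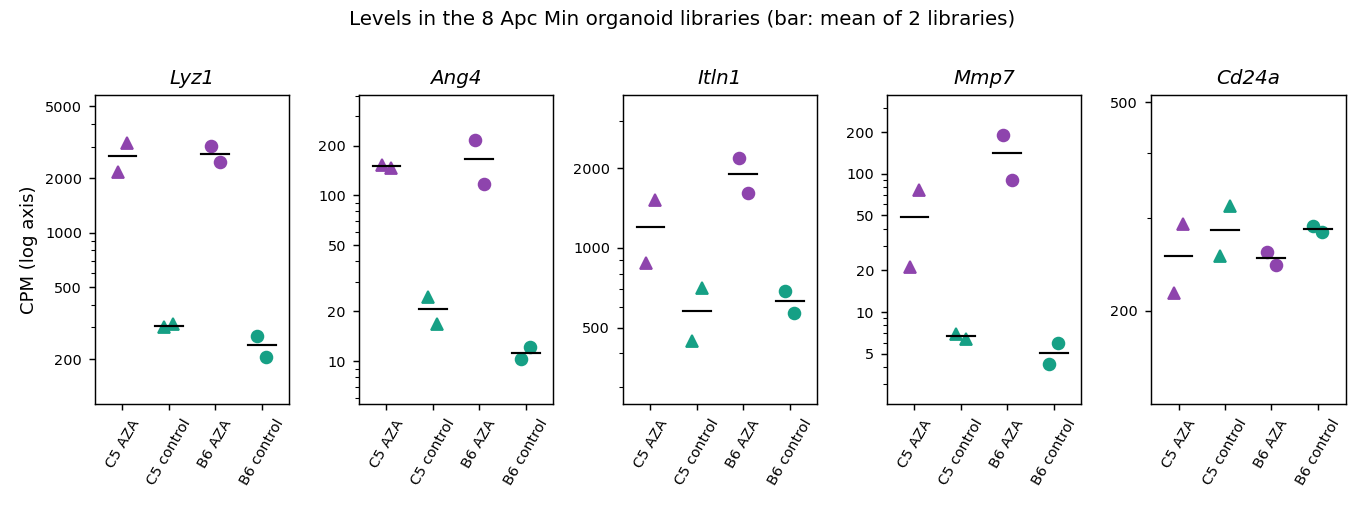
Levels of the 5 genes in the 8 Apc Min organoid libraries, in CPM on a log axis; points are libraries and bars are means of 2 libraries. AZA libraries lay above control libraries for Lyz1, Ang4, Itln1 and Mmp7, and Cd24a stayed between 216 and 316 CPM.

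The organoid comparison set AZA against untreated cultures. AZA is a cytidine analog that, once built into DNA, traps DNA methyltransferases and lowers DNA methylation. Lyz1, Ang4 and Mmp7 were 9.98-fold to 13.6-fold higher with AZA and Itln1 2.498-fold higher, while Cd24a was not called. By edgeR 4 of the 5 genes were called higher over both strains, where 28.5% of all 13395 genes tested were called.

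Lyz1 had 2167 and 3151 CPM in C5 AZA organoids, against 299.7 and 313 CPM in C5 controls. In B6 it had 3009 and 2469.9 CPM with AZA, against 269 and 206 CPM in controls. All 4 AZA libraries lay far above all 4 controls. The mean log2 change was 3.32 ± 0.15 (SE, 9.98-fold, adjusted p = 1.46e-09), at rank 8 of all genes by p. On the joint scale the AZA libraries held 1245 to 1752 CPM, still below the 2262 to 8616 CPM of Min mucosa.

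Ang4 had 153 and 147 CPM in C5 AZA organoids, against 24.4 and 16.7 CPM in C5 controls. In B6 it had 216 and 117 CPM with AZA, against 10.2 and 12.2 CPM in controls. Here too the treated and control libraries were apart, with control counts of only 71 to 148 reads. The mean log2 change was 3.36 ± 0.21 (SE, 10.3-fold, adjusted p = 3.63e-08). Ang4 held 83.2 to 93.4% of angiogenin-family reads with AZA but 55.8 to 68.9% in controls, so reads shared with its relatives weigh more in the controls.

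Mmp7 had 21.2 and 76.8 CPM in C5 AZA organoids, against 6.89 and 6.42 CPM in C5 controls. In B6 it had 191 and 90.7 CPM with AZA, against 4.18 and 5.95 CPM in controls. Over both strains the log2 change was 3.76 ± 0.37 (SE, 13.6-fold, adjusted p = 2.72e-06). The AZA libraries spread widely but lay above every control, whose counts were 29 to 57 reads.

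Itln1 had 878 and 1517 CPM in C5 AZA organoids, against 446 and 708 CPM in C5 controls. In B6 it had 2178 and 1614 CPM with AZA, against 689 and 569 CPM in controls. Over both strains Itln1 changed by 1.32 ± 0.18 on the log2 scale (SE, adjusted p = 7.52e-05), the smallest of the 4. The treated and control libraries were apart within each strain and over both.

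Cd24a had 216 and 293 CPM in C5 AZA organoids, against 254 and 316 CPM in C5 controls. In B6 it had 259 and 244 CPM with AZA, against 291 and 282 CPM in controls. The log2 change was −0.18 ± 0.13 (SE, adjusted p = 0.334), and its 95% interval of −0.43 to 0.08 leaves out changes of the size of the other 4 genes. Its treated and control libraries overlapped in C5 and over both strains, whereas in B6 both AZA libraries lay below both controls. The B6 change was not called (−0.19, adjusted p = 0.545), and how many of all genes were apart in this way was not counted.

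Both strains gave the same calls. In C5, where 14.6% of genes were called, the log2 changes were 3.12 for Lyz1, 2.86 for Ang4, 1.05 for Itln1 (adjusted p = 0.0126) and 2.81 ± 0.50 for Mmp7 (0.00165). In B6, where 16.1% were called, they were 3.52 for Lyz1, 3.86 for Ang4, 1.59 for Itln1 (adjusted p = 0.000666) and 4.72 ± 0.54 for Mmp7. The C5 call of Itln1 was lost without the C5 AZA library of replicate 4 (adjusted p = 0.0651) and in a fit of the C5 groups alone (0.0818). Without that library the C5 change of Mmp7 was 1.64 (adjusted p = 0.00276).

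In the test of the difference between strains 0% of genes were called (609 at an unadjusted p under 0.05), and none of the 5 passed with edgeR or DESeq2. Mmp7 had −1.91 ± 0.70 (SE, C5 minus B6, unadjusted p = 0.0164, adjusted p = 0.999) and Ang4 −0.996 (unadjusted p = 0.0235). Without a filter on low counts the Mmp7 value was −1.93 with an adjusted p of 0.0088, and without the C5 AZA library of replicate 4 its adjusted p was 0.0177. Control organoids of C5 and B6 had none of the 5 genes called by either tool, where 0.209% of genes were called. Ang4 was nearest, at 0.84 ± 0.30 (SE, unadjusted p = 0.0121, adjusted p = 0.695).

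Other granule genes moved with AZA as well, where 15% of all genes were called higher and 13.5% lower. Of 17 tested 13 were called higher and 0 lower, with a median of 2.34 beside an all-gene median of 0.04, among them Reg3b (4.74) and Reg3g (3.94). Also among them were Pla2g2a, with 0 reads in the controls of both strains, and Mptx2, with 0 reads in those of C5, so that their fitted changes depend on the prior count. Set per read assigned to genes against a floor of 3 reads over the controls of a strain, Pla2g2a was at least 17.3-fold higher with AZA in C5 and at least 25.1-fold in B6, and Mptx2 at least 20.2-fold in C5. With these 2 genes and Defa21, which was not called and had 0 reads in the B6 controls, at their bounds, the median of the list was again 2.34. Pla2g2a and Reg4 (2.34) were higher both with AZA and in adenoma. Niche genes were mostly not called, with 3 of 13 higher, namely Bst1 (3.78), Dll1 (1.01) and Csf1, which had 0 reads in the B6 controls, and Fzd5 lower (−0.85). Of 11 secretory transcription factors Sox9 was higher (0.84) and Neurog3 lower (−1.87). Of 13 Wnt targets 2 were higher, against 4 with DESeq2, and 3 lower, with the stem cell gene Lgr5 lowest (−2.54).

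Markers of other epithelial cells moved with AZA too, beside the 15% of all genes called higher and 13.5% called lower. Enterocyte markers summed to 16286 to 25038 CPM with AZA, against 2725 to 6035 CPM in controls, with 7 of 7 called higher. Enteroendocrine markers summed to 3663 to 5339 CPM with AZA, against 1432 to 2082 CPM in controls, with 5 of 7 higher. Goblet markers summed to 3349 to 5011 CPM with AZA, against 2560.0 to 3092 CPM in controls, with 6 of 7 tested higher and Retnlb at 0 in controls. Macrophage markers were near absent, at 5.86 to 20.7 CPM with AZA and 3.19 to 4.75 CPM in controls. The part of other epithelial cells in the changes of the 5 genes was not tested.

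**Figure D5:**
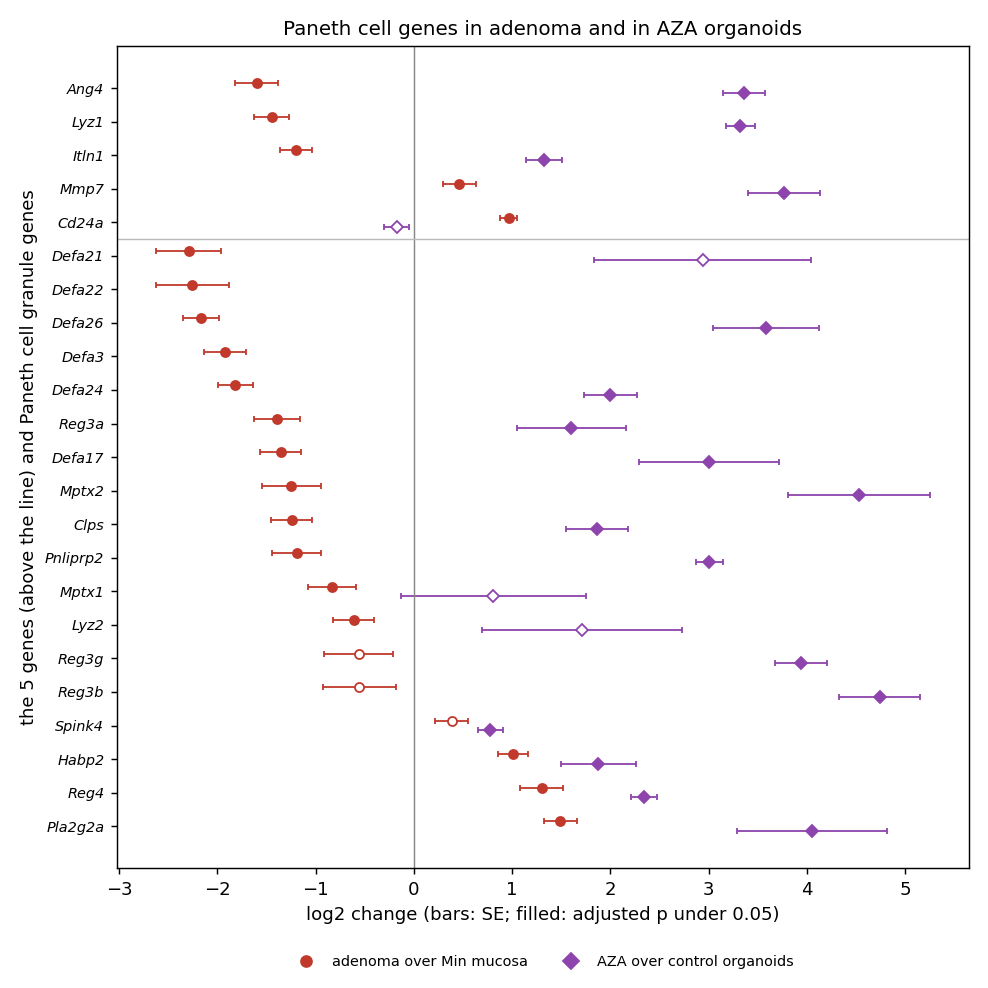
The log2 change of the 5 genes, above the line, and of tested granule genes other than these, below it, in adenoma over Min mucosa and in AZA over control organoids; bars are SE and filled points have an adjusted p under 0.05. Most granule genes lay below 0 in adenoma and above 0 with AZA, whereas Pla2g2a, Reg4, Habp2 and Spink4 lay above 0 in both, Spink4 without a call in adenoma. The AZA values of Pla2g2a, Mptx2 and Defa21 depend on the prior count.

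Control organoids, which are epithelial cultures with the Min allele, were also set against Min mucosa and adenoma of C5 and B6 in a joint fit of all libraries, with 15202 genes tested. Culture and tissue differ in most genes, with 73.8% called against Min mucosa and 73.4% against adenoma. Organoid and tissue libraries may also differ in preparation, with Rn45s at 0.76 to 1.61% of reads in organoids and 16.4 to 72.7% in tissue. Culture and kind of library cannot be told apart here. Against Min mucosa, Lyz1 was 26.2-fold lower in control organoids (log2 −4.71 ± 0.33), Ang4 53.0-fold lower (−5.73 ± 0.44) and Mmp7 40.6-fold lower (−5.34 ± 0.38). Itln1 was lower by much less, at −1.37 ± 0.27 (SE, adjusted p = 1.89e-05), and Cd24a was higher, at 0.36 ± 0.13 (adjusted p = 0.0141). The Cd24a call was lost with DESeq2 (0.24, adjusted p = 0.0803), with RLE scaling (0.24, 0.0972), which moves all genes by −0.12, and without the C5 control of replicate 4 or the first C5 Min library.

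Against adenoma, Mmp7 was 63.3-fold lower in control organoids, Lyz1 was lower by −3.52 on the log2 scale, Ang4 by −3.92 and Cd24a by −0.71 (adjusted p = 1.48e-05). Itln1 was not called, at −0.39 ± 0.26 (SE, adjusted p = 0.173, 95% interval −0.89 to 0.12). On the joint scale Mmp7 stood at 2.38 to 4.06 CPM in control organoids, against 161 to 314 CPM in C5 adenoma and 232 to 258 CPM in B6 adenoma. The balance among the genes differed too, since Itln1 had 149 to 276 reads per 100 Lyz1 reads in control organoids and 18.4 to 31.8 in Min mucosa. With AZA the Itln1 ratio was 40.5 to 72.4, and Cd24a had 8.62 to 9.99 reads per 100 Lyz1 reads, against 84.9 to 137 in control organoids. Macrophage markers were lower in control organoids than in Min mucosa in 7 of 7 tested, where 41% of all genes were called lower. The part of non-epithelial cells was not tested.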

How the data were processed

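RNA was extracted with a Qiagen AllPrep kit, depleted of ribosomal RNA with RiboMinus and read single-end on the Genome Analyser IIx of Illumina, per the labels' protocols. The authors deposited raw read counts per gene symbol for 47 libraries, made with BWA, HTSeq and mm10, per the submitters' processing notes; versions, annotation, strand setting and multi-mapping rule are not given in the sources used here. The table held 24062 gene symbols and 5 HTSeq summary rows, which made up 40.7 to 53.9% of a tissue library and 46.4 to 63.5% of an organoid library and were left out. Counts were fitted with edgeR 4.0.16 in R 4.3.3 by its quasi-likelihood test, with filterByExpr at a minimum count of 10 and a total of 15, TMM scaling and a group-means design over 39 tissue, 8 organoid or all 47 libraries. A prior count of 2 was used, and p-values were adjusted by Benjamini-Hochberg over all genes tested, with a call at 0.05. Alternatives used DESeq2 1.42.0, RLE size factors, no filter, Rn45s left out, the compared groups alone, the replicate number as a block, summed paralogs and fits without each library. The fits were also run on simulated counts with the same spread for every gene, which is simpler than these data, and that outcome is not given here. No 2 libraries of the same group were copies (43 replicate pairs, chi-square per degree of freedom at least 7.62). Libraries of different groups were not compared in this way.

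The replicate numbers come from the sample titles. Deviations from the group means had correlations of 0.107 to 0.455 between adenoma and Min mucosa libraries of the same number in all 12 pairs. The main tests did not use this pairing. The replicate number entered only as a block in alternative fits.

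The 5 genes, the lists and the tests were chosen with earlier results of these data known. Genes named beyond the 5 are the 3 called members of a list with the largest log2 change and the 3 most similar by Pearson r; further called list members were named after their values were seen. A gene that this rule named is not reported here. Exon lengths came from GENCODE M21, and promoters from RefSeq.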

Additional observations from a re-analysis of the deposited data

How the results depend on the processing

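Of 192 alternatives to 30 values, the 5 genes in each of 6 comparisons (the means of adenoma against Min, Min against wild type, C5 against B6 and AZA against control, PWD against B6, and control organoids against Min mucosa), leaving aside fits without 1 library, 185 kept direction and side of the threshold, 5 lost the call, 0 gained one and 2 changed sign; the cause was not tested. The calls lost were Ang4 in PWD against B6 (−1.29, adjusted p = 0.0925, compared groups alone), Cd24a there (−0.50, 0.0705, no filter, and −0.52, 0.162, compared groups alone) and Cd24a in control organoids against Min mucosa (0.24 with RLE scaling, 0.0972, and 0.24 with DESeq2, 0.0803). RLE scaling moved all genes by −0.12 in that last comparison, by −0.08 against adenoma and by less than 0.05 elsewhere. Signs changed in values near 0. For Mmp7 in Min against wild-type mucosa the mean was 0.00048 with RLE and 0.0036 with no filter. For Mmp7 in C5F1 against B6 wild-type mucosa it was −0.018 with RLE and with DESeq2, −0.011 with Rn45s left out, −0.0061 with the replicate block and −0.014 in the compared groups alone. For Itln1 in the B6xPWD minus B6 adenoma difference it was 0.041 with the replicate block in adenoma and Min mucosa alone and 0.051 in the compared groups alone. For Cd24a with no filter it was 0.00073 in C5 against B6 control organoids and −0.00041 in the AZA difference.

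Ranges of fits without 1 library at a time follow where they crossed 0, or where 1 of the 30 values above crossed the threshold. Other results also crossed the threshold in such fits, and these are given with their comparisons in the Results. Over adenoma against Min mucosa, Mmp7 ranged from 0.37 to 0.52. Over the mean of Min against wild-type mucosa, Lyz1 ranged from −0.099 to 0.058, Mmp7 from −0.087 to 0.13 and Cd24a from −0.023 to 0.046. In C5F1 Lyz1 ranged from −0.17 to 0.0044, Itln1 from −0.014 to 0.19 and Mmp7 from −0.10 to 0.20. In C5 Lyz1 ranged from −0.056 to 0.20, Ang4 from −0.33 to 0.086 and Itln1 from −0.24 to 0.017. In B6xPWD Ang4 ranged from −0.095 to 0.69, Itln1 from −0.35 to 0.31 and Mmp7 from −0.25 to 0.60. In wild-type mucosa against B6, C5F1 gave −0.13 to 0.13 for Mmp7 and −0.13 to 0.085 for Cd24a, C5 gave −0.012 to 0.45 for Lyz1, and B6xPWD gave −0.090 to 0.53 for Lyz1 and −0.52 to 0.14 for Itln1. PWD against B6 gave −1.58 to −0.89 for Ang4, −1.54 to −0.99 for Mmp7 and −0.60 to −0.40 for Cd24a. In adenoma against B6, C5F1 gave −0.14 to 0.65 for Lyz1 and −0.069 to 0.18 for Mmp7, and C5 gave −0.42 to 0.084 for Mmp7. Itln1 in C5 against B6 over 3 tissues ranged from 0.50 to 0.68. In the B6xPWD minus B6 adenoma difference Lyz1 ranged from −0.24 to 0.52 and Itln1 from −0.33 to 0.18. In organoids Cd24a ranged from −0.39 to 0.043 with AZA in C5, from −0.16 to 0.14 in C5 against B6 controls, from −0.20 to 0.24 in the AZA difference and from 0.26 to 0.41 against Min mucosa, and Itln1 from −0.49 to 0.17 in C5 against B6 controls.

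Over all genes, Min against wild-type mucosa called 1 gene, against 23 with DESeq2, 3 with no filter, 2 with the replicate block and 4 in the compared groups alone. PWD against B6 called 2560 genes and 1034 in the compared groups alone. Same-numbered organoid libraries had correlations of −0.0117 in C5 and −0.00029 in B6. With 2 libraries per group this is 1 value per strain, so whether the number pairs cultures cannot be told from it. Outside adenoma the replicate block changed no call of the 5 genes. Groups hold 2 or 3 libraries, and control organoids held 29 to 57 reads of Mmp7 and 71 to 148 of Ang4, which limits precision.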
